A study of Mus musculus with 3 samples.

Results

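The family of miR-15, miR-16, miR-195a and miR-497 was followed in small RNA libraries of mouse colonic mucosa. Members were taken by name from the deposited table of normalized miRNA reads, as every row from the hairpins miR-15a, miR-15b, miR-16, miR-195a and miR-497, whichever arm. This gave 9 of 471 rows, of which 5 are 5p arms and 4 are 3p arms. All 9 passed the minimum mean of 10 normalized reads over the libraries that is used below for ratios. miR-497a-3p and miR-497b were not analysed here.

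The series holds 3 libraries, 1 per group. WT came from a mir-10b+/+ mouse labelled healthy. KO carried the global mir-10b-/- deletion, in which the gene is lost in every cell of the body, and is labelled diabetic. The third library, called KO+10b as in the table, carried the same global deletion, received by injection a miR-10b-5p mimic, a synthetic copy of the lost miRNA, and is labelled rescue. Genotype and diabetic state therefore differ together between KO and WT, no control injection is named, and the sources used here give no dose, timing, age or sex. With 1 library per group no spread between replicates can be measured, so no test was run and every difference is between single libraries.

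miR-15a, miR-15b, miR-16, miR-195a and miR-497a are grouped as a family because their 5p strands begin with the same seed, the short stretch at the 5′ end through which a miRNA recognises its target mRNAs. They are known as brakes on cell division and survival, repressing mRNAs such as Bcl2, a survival factor, and the cyclins D and E, which drive entry into the cell cycle. In human leukaemia the miR-15a/16-1 locus is often deleted, in the mouse heart miR-195 is linked to the exit of muscle cells from the cell cycle after birth, and in human colorectal tumours miR-195 and miR-497 are often low. A miRNA hairpin is cut into a 5p and a 3p strand, and usually more of one of them is retained.

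The 5p sequences are shown because they define the family, with the seed (bases 2 to 8) in capitals. They are RefSeq sequences on build GRCm38.p6, read 5′ to 3′.
miR-16-5p: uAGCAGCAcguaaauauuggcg
miR-195a-5p: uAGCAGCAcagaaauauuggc
miR-15a-5p: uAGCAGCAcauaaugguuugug
miR-15b-5p: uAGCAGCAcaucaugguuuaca
miR-497a-5p: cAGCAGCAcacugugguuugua
All 5 share the seed AGCAGCA and also the C at base 9. Over the whole strand they match to differing degrees, and the counts that follow include the shared seed. miR-16-5p and miR-195a-5p are the same at 19 of 21 positions compared from the 5′ end, and miR-15a-5p and miR-15b-5p at 18 of 22. miR-15a-5p and miR-497a-5p match at 17 of 22, whereas miR-16-5p and miR-497a-5p match at 11 of 22. miR-16-5p and miR-15a-5p match at 16 of 22, as do miR-15b-5p and miR-497a-5p. The sources used here do not say how reads that match more than 1 of these sequences were counted.

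The genes lie as neighbours at 3 loci of GRCm38. Mir15a (chr14:61632027-61632110, minus strand) and Mir16-1 (chr14:61631880-61631972, minus strand) lie 54 bases apart within the non-coding gene Dleu2, Mir15a in an intron and Mir16-1 over an exon of at least 1 transcript. Mir15b (chr3:69009772-69009835, plus strand) and Mir16-2 (chr3:69009902-69009996, plus strand) lie 66 bases apart in introns of Smc4, which encodes a condensin subunit that compacts chromosomes at mitosis. Mir497 (chr11:70234717-70234800, plus strand) and Mir195a (chr11:70235042-70235135, plus strand) lie 241 bases apart, in no annotated host gene, and Mir497 is overlapped on the other strand by Mir497b.

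miR-16 has 2 gene copies, and their hairpins are shown because they carry the same 5p strand in different surroundings. The mature strands are in capitals.
Mir16-1: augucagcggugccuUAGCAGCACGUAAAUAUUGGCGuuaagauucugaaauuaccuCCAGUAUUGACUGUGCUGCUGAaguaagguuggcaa
Mir16-2: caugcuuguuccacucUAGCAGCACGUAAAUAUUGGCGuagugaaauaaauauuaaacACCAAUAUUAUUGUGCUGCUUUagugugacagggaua
Reads of miR-16-5p therefore cannot be divided between the loci on chromosomes 14 and 3. The 3p strands of the copies differ, but the table has a single row named miR-16-3p, which does not name its copy.

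The 3p strands are shown next, with the letters UGCUGCU in capitals, the reverse complement of the seed, found by a search of the given strand.
miR-16-1-3p: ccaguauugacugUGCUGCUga
miR-16-2-3p: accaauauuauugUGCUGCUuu
miR-195a-3p: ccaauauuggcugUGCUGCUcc
miR-15b-3p: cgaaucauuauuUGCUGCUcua
miR-15a-3p: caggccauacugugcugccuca
The letters were found in every one of these except miR-15a-3p. Of all 1674 distinct mature mouse sequences in the RefSeq table, 5 (0.299%) hold them. None of these 3p strands has the family seed at bases 2 to 8.

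Some facts of the whole series bear on the values. miR-10b-5p, made by the gene that was targeted, had 18057 normalized reads in WT, against 14 in KO and 469 in KO+10b. The normalized reads summed to 4872446 in WT, 8124898 in KO and 8510085 in KO+10b, while the median row had 253, 272 and 220. Scaling the libraries to equal totals would shift every log2 ratio by -0.74 for KO against WT, -0.07 for KO+10b against KO and -0.80 for KO+10b against WT, and median-of-ratios factors would shift them by -0.15, 0.29 and 0.14. The sequencing depth is unknown, and reads below are the deposited normalized reads.

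miR-16-5p was the most abundant member in each library and was highest in WT. It had 19832 normalized reads in WT, against 11045 in KO and 15507 in KO+10b. It was 1.80-fold lower in KO than in WT, a log2 ratio of -0.84 after adding 1 to each value, and 1.40-fold higher in KO+10b than in KO. As deposited the KO+10b value lay about midway, 50.8% of the way from KO to WT, but this position depended on the scaling. With equal totals the log2 ratio of KO+10b was 0.42 against KO and -1.16 against WT, which is nearer to KO. With median-of-ratios factors these ratios were 0.78 and -0.22, which is nearer to WT. miR-16-5p ranked 39 of 471 rows in WT, 63 in KO and 49 in KO+10b.

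miR-195a-5p, the second most abundant member, kept the same order of libraries over a narrower range. It had 7192 reads in WT, 5894 in KO and 6458 in KO+10b, so the highest value was 1.22 times the lowest as deposited. With equal totals it lay at a log2 ratio of -1.02 in KO against WT and -0.96 in KO+10b against WT. It comes from the chromosome 11 locus with miR-497a-5p, a strand linked in human colorectal cancer to repression of the growth factor receptor IGF1R. miR-497a-5p had another order, at 3229 in WT, 3874 in KO and 2697 in KO+10b, with KO highest and KO+10b lowest as deposited, though with equal totals its log2 ratio of KO against WT was -0.47.

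The strands miR-15a-5p and miR-15b-5p, which derive from the separate loci in Dleu2 and Smc4, did not share an order. miR-15b-5p had 3230 reads in WT, 5119 in KO and 2770 in KO+10b. It was the member with the highest log2 ratio of KO against WT, at 0.66 as deposited and -0.07 with equal totals, and with the lowest of KO+10b against KO, at -0.89. miR-15a-5p had 1742 reads in WT, 2035 in KO and 2443 in KO+10b, and was the only 5p member that was highest in KO+10b as deposited. It was 1.40-fold higher in KO+10b than in WT as deposited, a log2 ratio of 0.49 that became -0.32 with equal totals.

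The 3p strands were scarcer, and the most varied of them was miR-15b-3p. It had 560 reads in WT, 418 in KO and 1101 in KO+10b. As deposited it was 2.63-fold higher in KO+10b than in KO and 1.97-fold higher in KO+10b than in WT. The log2 ratio of KO+10b against WT, 0.97 as deposited, was 0.17 with equal totals and 1.11 with median-of-ratios factors. miR-16-3p had 849 reads in WT, 436 in KO and 553 in KO+10b, 1.95-fold lower in KO than in WT, which is the order of libraries seen for miR-16-5p. miR-15a-3p, at 220, 170 and 142 in the same order, and miR-195a-3p, at 114, 128 and 103, were the least abundant members. No member was listed at 0 in any library.

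**Figure D1:**
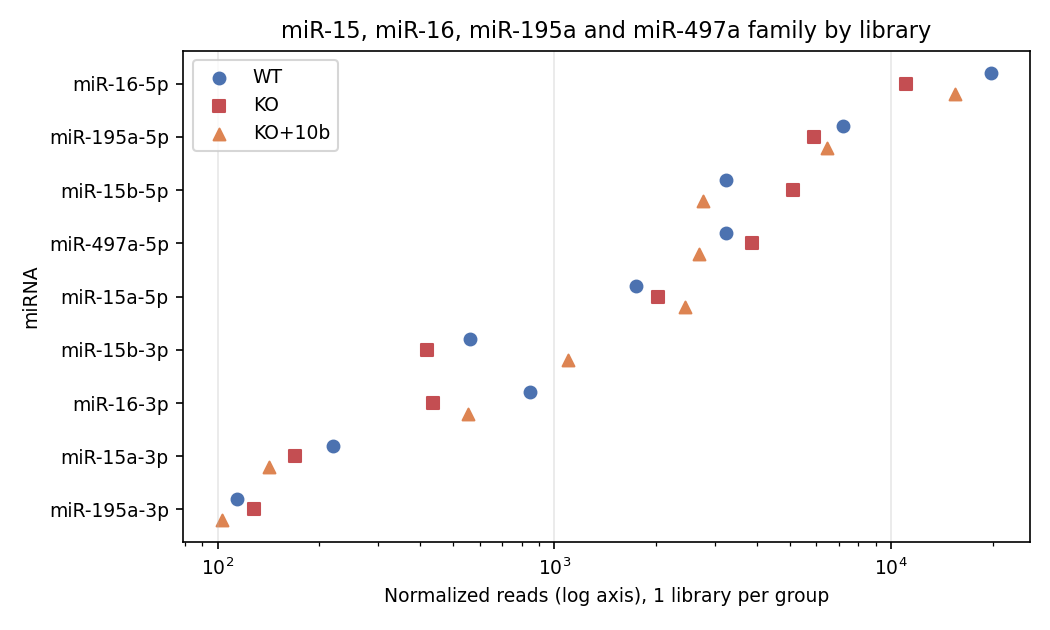
Normalized reads of the 9 members on a log axis, with 1 point per library and no error bars because each group is 1 library. miR-16-5p runs from 11045 in KO to 19832 in WT, and miR-15b-3p is the member whose KO+10b point, at 1101, stands farthest from its KO point, at 418.

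At a limit of 2-fold on the log2 scale with 1 added, 0 of 9 members were higher and 0 were lower in KO than in WT. Among the 415 rows that passed the minimum mean, 21.2% were at least 2-fold higher and 9.64% at least 2-fold lower in that comparison. The members' median log2 ratio was -0.29, from -0.96 for miR-16-3p to 0.66 for miR-15b-5p, with 5 below 0 and 4 above, beside a median of 0.13 over all rows. miR-16-3p, at -0.96, and miR-16-5p, at -0.84, were the members nearest to the limit.

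In KO+10b against KO, 1 of 9 members was at least 2-fold higher, miR-15b-3p with a log2 ratio of 1.40, and 0 were lower. Over all rows 13.3% were at least 2-fold higher and 28.2% lower. The members' median was 0.13, beside -0.31 over all rows, with 5 above 0 and 4 below. The other strand of the same hairpin, miR-15b-5p, lay at the opposite end of the family at -0.89.

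In KO+10b against WT, 0 of 9 members were at least 2-fold higher and 0 were lower, with 19.8% of all rows higher and 25.8% lower. The members' median was -0.22, beside -0.14 over all rows, and 7 of the 9 lay below 0. The exceptions were miR-15b-3p, at 0.97 and so just inside the limit as deposited, and miR-15a-5p, at 0.49. The comparisons share libraries, so their values for a member are not independent of each other. As deposited, the median size of the log2 ratio without its sign was 0.37 for the members in KO against WT, beside 0.67 over all rows. It was 0.34 beside 0.84 in KO+10b against KO, and 0.35 beside 0.88 in KO+10b against WT. These sizes depend on the scaling. With equal totals the members' median log2 ratio was -1.02 in KO against WT, beside -0.60 over all rows. In KO+10b against WT it was -1.03, beside -0.93. The rows compared also differ in level, as all 9 members had a mean of at least 100 and the 415 rows a mean of at least 10.

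**Figure D2:**
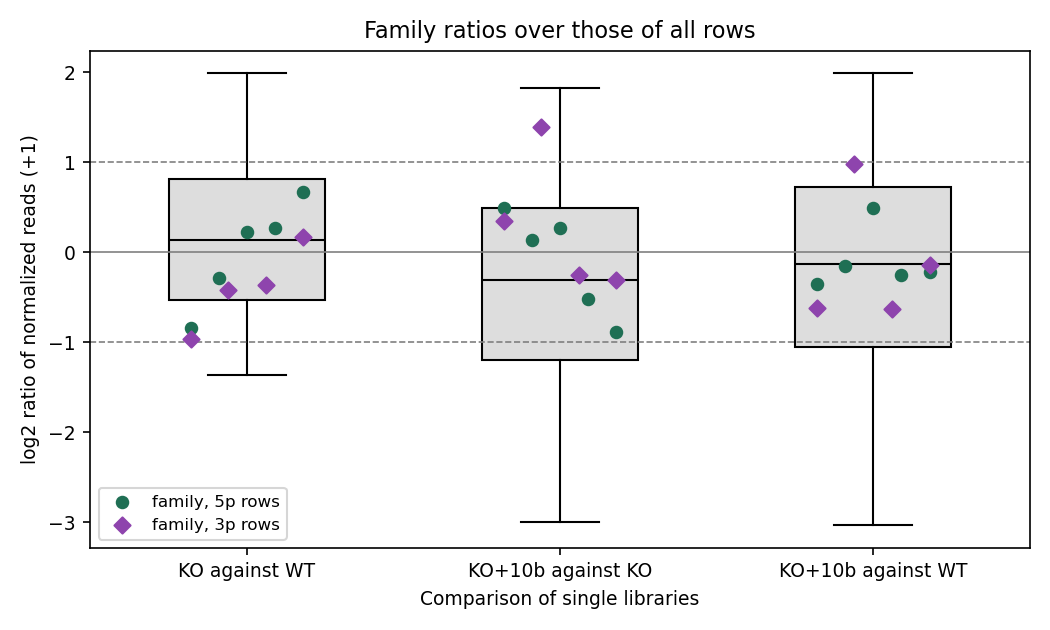
Log2 ratios of normalized reads with 1 added, for the 5p members (circles) and 3p members (diamonds), over boxes of the 415 rows past the minimum mean (box from the 25th to the 75th percentile, line at the median, whiskers at the 5th and 95th percentiles). The dashed lines mark 2-fold, and miR-15b-3p in KO+10b against KO, at 1.40, is the member point beyond them.

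The direction of several of these ratios rests on how the libraries are scaled. With equal totals 5 of 9 members were at least 2-fold lower in KO than in WT, namely miR-16-5p at -1.58, miR-16-3p at -1.70, miR-15b-3p at -1.16, miR-15a-3p at -1.10 and miR-195a-5p at -1.02. Over all rows 34.0% were then lower and 7.23% higher. miR-15b-5p went from 0.66 to -0.07, miR-497a-5p from 0.26 to -0.47, miR-15a-5p from 0.22 to -0.51 and miR-195a-3p from 0.17 to -0.57, so that these 4 changed direction. With median-of-ratios factors miR-16-3p, at -1.11, was the only member past 2-fold in KO against WT, beside 14.7% of all rows lower and 17.1% higher, and the 9 members kept their deposited directions. In KO+10b against WT equal totals put 5 of 9 members at least 2-fold lower, namely miR-15a-3p at -1.43, miR-16-3p at -1.42, miR-16-5p at -1.16, miR-497a-5p at -1.06 and miR-15b-5p at -1.03, beside 46.7% of all rows. miR-15b-3p in KO+10b against KO remained at least 2-fold higher under each scaling, and was the 1 member of 9 to do so. It lay at 1.33 with equal totals, beside 12.8% of all rows higher, and at 1.68 with median-of-ratios factors, beside 18.6%.

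**Figure D3:**
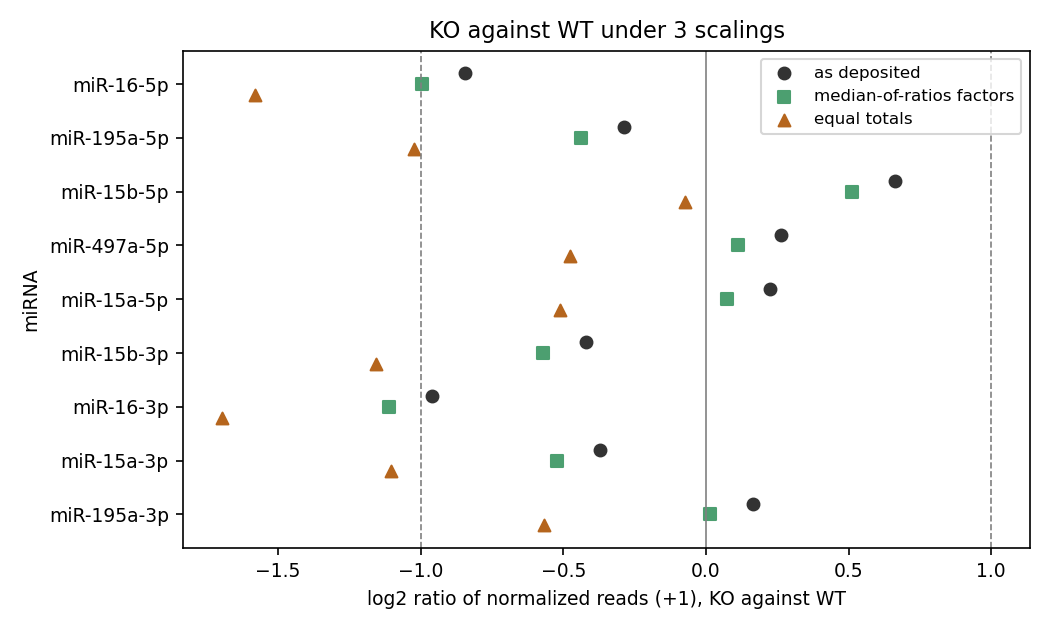
Log2 ratio of KO against WT for each member with the values as deposited (circles), with median-of-ratios factors (squares) and with equal totals (triangles), dashed lines at 2-fold. Each scaling moves the 9 members together, and miR-16-5p lies at -0.84 as deposited and -1.58 with equal totals, while miR-15b-5p goes from 0.66 to -0.07.

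Shares within a library do not depend on scaling between libraries. Of the library total, the 9 members together made up 0.759% in WT, 0.358% in KO and 0.373% in KO+10b. Their share was 2.12-fold lower in KO than in WT and 2.03-fold lower in KO+10b than in WT. The median row was lower as well. Scaled to equal totals, the median log2 ratio over all rows was -0.60 in KO against WT and -0.93 in KO+10b against WT. The members' medians were then -1.02 and -1.03. The family sum itself was 36968 in WT, 29119 in KO and 31774 in KO+10b, which is 1.27-fold lower in KO than in WT, while the library total was 1.67-fold higher. With the 10 most abundant rows left out of the total, the family share was 1.77% in WT, 1.02% in KO and 1.19% in KO+10b. It was then 1.74-fold lower in KO than in WT and 1.48-fold lower in KO+10b than in WT.

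The make-up of the family differed most in the weight of miR-16 and miR-15b. miR-16-5p supplied 53.6% of the family sum in WT, 37.9% in KO and 48.8% in KO+10b. miR-15b-5p supplied 8.74% in WT, 17.6% in KO and 8.72% in KO+10b, so KO was the library with the lowest weight of miR-16-5p and the highest of miR-15b-5p. miR-195a-5p held nearly the same weight throughout, at 19.5%, 20.2% and 20.3% in WT, KO and KO+10b, whereas miR-497a-5p supplied 8.73%, 13.3% and 8.49%. miR-15a-5p supplied 4.71% in WT, 6.99% in KO and 7.69% in KO+10b, and the order of the 5p members by level was the same in the 3 libraries. The mature 5p strands are 21 or 22 bases long. How reads that match several of them were counted is not stated, which limits the comparison of levels between members.

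**Figure D4:**
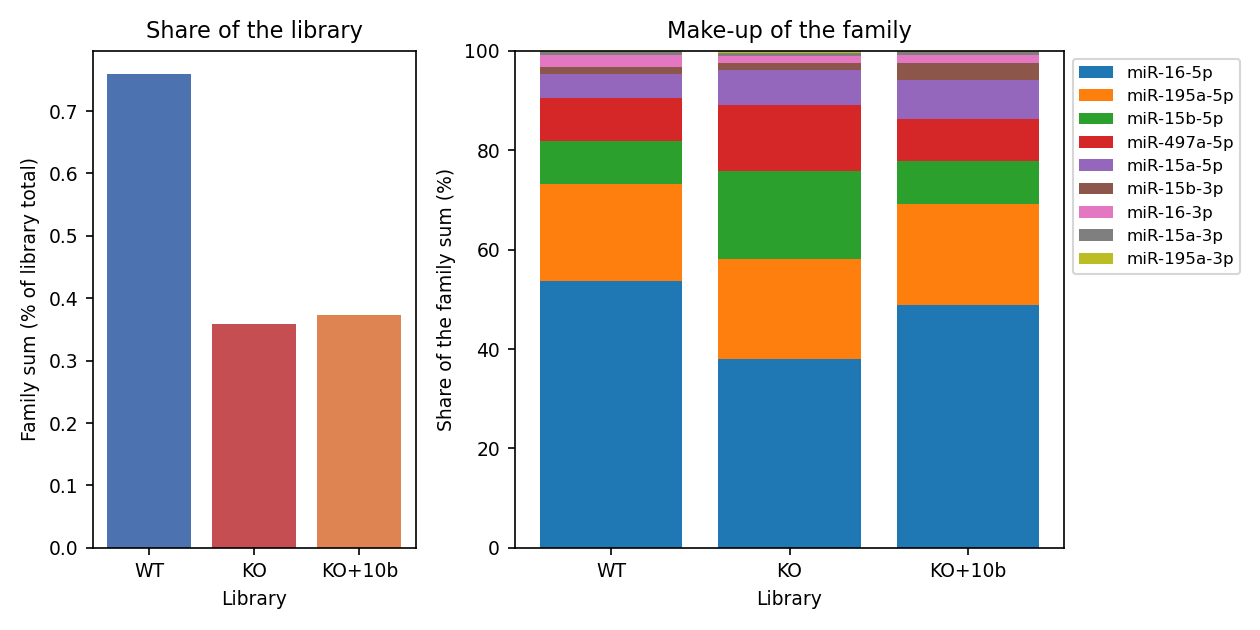
Left, the sum of the 9 members as a percent of each library's total, 0.759% in WT, 0.358% in KO and 0.373% in KO+10b. Right, each member as a percent of the family sum, where miR-16-5p takes 53.6% in WT, 37.9% in KO and 48.8% in KO+10b.

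Rows that share a locus can be set against each other within a library. miR-195a-5p was 2.23 times miR-497a-5p in WT, 1.52 times in KO and 2.39 times in KO+10b. miR-16-5p was 11.4 times miR-15a-5p in WT, 5.43 times in KO and 6.35 times in KO+10b. It was 6.14 times miR-15b-5p in WT, 2.16 times in KO and 5.60 times in KO+10b, so the ratio to miR-15b-5p was low in KO alone while that to miR-15a-5p was low in KO and KO+10b. Since miR-16-5p can come from either gene copy, neither ratio belongs to 1 locus. Between the 2 miR-15 strands, miR-15b-5p was 1.85 times miR-15a-5p in WT, 2.52 times in KO and 1.13 times in KO+10b.

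The balance of 5p and 3p strands was computed for the 4 hairpins with both rows. The 5p strand was the more abundant in all 4 in every library, while over all 166 hairpins with both rows the 5p strand was at least as high as the 3p strand in 50.6% in WT, 55.4% in KO and 52.4% in KO+10b. miR-195a was the most one-sided, with a 5p level 63.1 times the 3p level in WT, 46.0 times in KO and 62.7 times in KO+10b. For miR-16 the ratio was 23.4 in WT, 25.3 in KO and 28.0 in KO+10b, which stayed within a narrow range. Reads of miR-16-5p can come from either gene copy and the miR-16-3p row names none, so this ratio cannot be assigned to a single hairpin. For miR-15a it was 7.92 in WT, 12.0 in KO and 17.2 in KO+10b.

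miR-15b had the least one-sided balance in WT and KO+10b and the widest swing of the 4. Its hairpin is shown because its strands gave the widest shift of balance among these 4 hairpins. It is RefSeq sequence at chr3:69009772-69009835 of GRCm38.p6, with the mature strands in capitals.
Mir15b: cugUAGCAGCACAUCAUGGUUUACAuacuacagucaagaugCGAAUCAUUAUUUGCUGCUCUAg
The 5p level was 5.77 times the 3p level in WT, 12.2 times in KO and 2.52 times in KO+10b. The 3p strand thus made up 14.8% of the hairpin's reads in WT, 7.55% in KO and 28.4% in KO+10b. The log2 balance differed by -2.28 between KO+10b and KO, that is 4.86-fold.

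Shifts of that kind were common in the table. In KO+10b against KO 1 of 4 member hairpins shifted its balance by at least 2-fold, miR-15b, beside 51.8% of the 166 hairpins. In KO against WT it was again 1 of 4, miR-15b with a shift of 1.09, beside 54.8%. In KO+10b against WT it was 2 of 4, miR-15a with 1.12 and miR-15b with -1.20, beside 53.0%. In a set chosen after seeing the data, the 90 hairpins whose strands both had a mean of at least 100, the share past 2-fold was 47.8% in KO against WT, 40.0% in KO+10b against KO and 38.9% in KO+10b against WT. Within that set the miR-15b shift between KO+10b and KO ranked 10 of 90 by size, and among all 166 hairpins it ranked 40. The miR-16 shift, which may mix its gene copies, ranked 80 of 90 and 152 of 166.

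**Figure D5:**
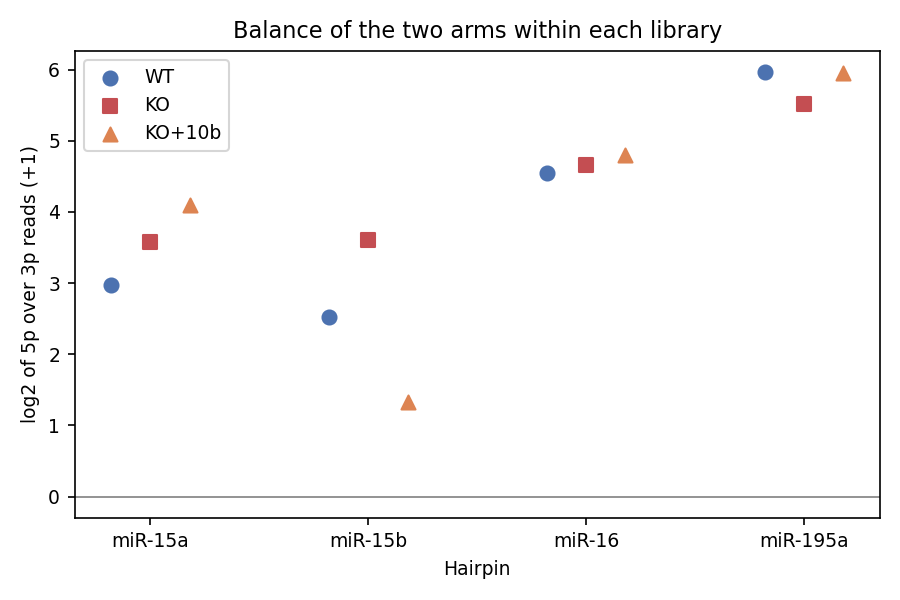
Log2 ratio of 5p over 3p normalized reads, with 1 added to each, for the 4 hairpins with both strands, 1 point per library. miR-15b runs from 1.33 in KO+10b to 3.61 in KO, while the points of miR-16 lie between 4.54 and 4.81.

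Of the rows with a RefSeq sequence, found by name for 385 of 469 names, 1 row outside the family had the seed AGCAGCA, miR-322-5p, the mouse counterpart of human miR-424. It had 1029 reads in WT, 1841 in KO and 606 in KO+10b. Its neighbour on the X chromosome, miR-503-5p, whose seed differs in its last base, had 359 reads in WT, 651 in KO and 128 in KO+10b. They are shown for comparison with the family, with bases 2 to 8 in capitals.
miR-322-5p: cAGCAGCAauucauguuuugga
miR-503-5p: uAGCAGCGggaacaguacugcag
Both had KO highest and KO+10b lowest as deposited, as miR-15b-5p and miR-497a-5p did. With equal totals the log2 ratios of KO against WT were 0.10 for miR-322-5p and 0.12 for miR-503-5p, but -0.07 for miR-15b-5p and -0.47 for miR-497a-5p, so the order was then no longer shared. The family made up 97.2% of the reads with this seed in WT, 93.8% in KO and 98.0% in KO+10b, and the reads with the seed together were 0.744%, 0.367% and 0.358% of the library totals.

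Among the 302 rows whose mean was 100 or more, those most like miR-16-5p were found by the Euclidean distance between their 3 log2 values, each centred on its own mean. They were miR-425-3p (distance 0.05), miR-333 (0.05), miR-133b-3p (0.07), miR-365-3p (0.10) and miR-362-3p (0.15). miR-425-3p had 899 reads in WT, 489 in KO and 722 in KO+10b. Of the family, miR-16-3p was nearest, ranked 9 of 301 with a distance of 0.19, and miR-15b-5p was farthest, ranked 158 with 1.18. A likeness over 3 libraries is a description only.

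Other miRNAs known for restraining cell division were listed as let-7, miR-98, miR-26, miR-34, miR-449, miR-322 and miR-503 hairpins. Of the 19 hairpins listed 16 had a row, with none for miR-449, and 30 rows passed the minimum mean. In KO against WT 8 of 30 were at least 2-fold higher and 5 lower, with a median log2 ratio of 0.07, and in KO+10b against KO the counts were 6 higher and 8 lower (median 0.08). In KO+10b against WT the counts were 3 higher and 4 lower (median -0.02). These counts stand beside shares over all rows of 21.2% higher and 9.64% lower in KO against WT, 13.3% and 28.2% in KO+10b against KO, and 19.8% and 25.8% in KO+10b against WT. miR-26a-5p, the row with the highest mean, had 120950, 122738 and 128088 reads in WT, KO and KO+10b, and let-7g-5p had 50354, 124550 and 97101. The growth-promoting miR-17-92 cluster and its paralogs had 19 such rows, with 5 higher and 0 lower in KO against WT (median 0.17), 0 higher and 7 lower in KO+10b against KO (median -0.75), and 1 higher and 4 lower in KO+10b against WT (median -0.46), beside the same shares.

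The mucosa holds several cell types, and in bulk RNA fewer cells of a type and less RNA per cell cannot be told apart. Epithelial markers of the colon were abundant, with 15 rows of miR-192, miR-194, miR-215 and the miR-200 family, none at 0. They summed to 31.7% of the total in WT, 31.6% in KO and 29.0% in KO+10b. The rows did not share an order, as 6 were highest in WT, 7 in KO and 2 in KO+10b as deposited. All 4 hairpins of the white blood cell list had a row, 5 rows in all with none at 0, which summed to 0.749% of the total in WT, 0.239% in KO and 0.609% in KO+10b. Most of that sum was miR-142a-5p, with 31674, 14200 and 47347 reads in WT, KO and KO+10b, while miR-142a-3p was highest in KO, with 1587, 2753 and 1804. Of the 5 rows 2 were lowest in KO, as miR-16-5p was, and 2 were highest there. Of the red blood cell list 3 of 4 hairpins had a row, and their 4 rows, none at 0, summed to 0.0451%, 0.0228% and 0.0368% of the totals. miR-451a was the only one of them lowest in KO, at 1615, 849 and 2164, whereas miR-144-3p had 324, 689 and 725. In KO against WT 2 of the 4 rows were at least 2-fold higher and 0 lower, beside 21.2% and 9.64% of all rows. One of these was miR-144-5p, exactly at the limit with 22 reads in WT and 45 in KO. The part of these cells in the miR-16 values was not tested.

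Marker rows of muscle and stroma did not share an order either. The 4 smooth muscle rows of miR-143 and miR-145a, none at 0, summed to 11.7% of the total in WT, 13.0% in KO and 26.1% in KO+10b, and all 4 were highest in KO+10b. Between WT and KO they went both ways, with 294225 and 954512 reads for miR-143-3p and 261621 and 83319 for miR-145a-5p. The 4 striated muscle rows summed to 0.107%, 0.108% and 0.288%, mostly miR-1a-3p with 2989, 7441 and 22584 reads in WT, KO and KO+10b, while miR-133b-3p was highest in WT, with 2158, 1286 and 1726, and miR-1a-5p was at 0 in KO. The 5 mesenchymal rows of miR-199 and miR-214, none at 0, summed to 1.47%, 1.05% and 0.740%, with 3 rows highest in WT and 2 in KO, and 4 lowest in KO+10b. The 2 endothelial rows of miR-126a, none at 0, summed to 1.23%, 0.959% and 1.44%. The part of these cells in the miR-195a and miR-497a values was not tested.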

How the data were processed

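Small RNA from colonic mucosa was sequenced in 3 mouse libraries, WT, KO and KO+10b (the mimic-injected knockout), grouped by genotype and treatment label. Per the labels' protocols, total RNA was extracted with Trizol and made into TruSeq small RNA libraries read as single 50-base reads. The deposited values are a score, normalized miRNA reads rounded to whole numbers by the authors, per the file headers. The table also holds 2 columns of another kind, the authors' differences of the libraries (KO from WT, and KO+10b from KO) per the file headers, which equalled the subtraction in all 471 rows and were not used further. The submitters' processing notes name the build mm10. The sources used here name no aligner, counting tool or normalization method, so depth is unknown and no intervals are given.

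With Python 3.11.15, pandas 2.3.3 and numpy 2.4.6, log2 ratios were taken after adding a pseudocount of 1. Rows with a mean below 10 were left out of the background, which left 415, and rows at least 2-fold apart were counted as higher or lower. Ratios between strands and shares of totals were computed within a library. The counting was tested on simulated data. Every member was named, with rows sharing the seed, the 5 rows most like miR-16-5p and at most 2 abundant rows of each list. The family and the lists were chosen with earlier results of these data known. Alternatives were other scalings, pseudocounts of 0.1 and 10, minimum means of 0 and 100, a 1.5-fold limit and the more abundant strand only, and 1 alternative was added after seeing the data.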

Additional observations from a re-analysis of the deposited data

How the results depend on the processing

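Counts of members at least 2-fold apart moved mainly with the scaling. With equal totals, with or without the miR-10b rows, the lower members went from 0 to 5 in KO against WT, beside 34.0% of all rows. In KO+10b against WT they also went from 0 to 5, beside 46.7% of all rows. Both changes follow from the totals of the libraries. With median-of-ratios factors 1 member was lower in KO against WT, beside 14.7% of all rows, and 1 was higher in KO+10b against WT, beside 22.9%. A 1.5-fold limit gave 1 higher and 2 lower in KO against WT, 1 lower in KO+10b against KO, and 1 higher and 2 lower in KO+10b against WT. No share of all rows is given at that limit, so these counts have no background beside them. With the more abundant strand only, 0 members were higher in KO+10b against KO, since miR-15b-3p is the scarcer strand. Leaving the 10 most abundant rows out of the total gave family shares of 1.77% in WT, 1.02% in KO and 1.19% in KO+10b, and 5p strands alone gave 0.723%, 0.344% and 0.351%. Pseudocounts of 0.1 and 10, no minimum mean and a minimum mean of 100 moved no count of members, and the pseudocounts moved no strand ratio by over 0.25 on the log2 scale. No paired analysis was possible because each group is 1 library. With 1 library per group and unknown depth, neither the spread between mice nor counting error can be set beside a value.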
